A study of Mus musculus with 31 samples.

Results

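The 10 C-type lectin receptor genes Clec4a1, Clec4a2, Clec4a3, Clec4d, Clec4e, Clec4n, Clec7a, Clec12a, Mgl2 and Mrc1 were followed in single cells of the mouse lung. The 10 genes were taken by symbol from the 47069 genes measured, and each symbol matched 1 Ensembl identifier. The 31 cells came from right lung lobes of 10-week-old adult Csf1r-GFP mice, taken 7 days after a sham operation in which the chest cavity was opened. They were sorted as CD45+, CSF1R-GFP+ and F4/80+, and the sort label also names Ly6G, the neutrophil antigen, without a sign. Csf1r-GFP is a transgenic reporter that marks cells in which the promoter of the CSF1 receptor gene is active, which includes monocytes and macrophages. All 31 cells belong to 1 group and carry no label for the animal, so the group counts as 1 sample, no test was made, and the intervals on shares reflect counting of cells alone. Levels are FPKM, fragments scaled to transcript length and to library depth, reads are expected counts, and a gene was called found in a cell at 1 FPKM or more.

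C-type lectin receptors are surface proteins of myeloid cells that bind sugars, lipids or proteins through a shared fold. Activating members such as Clec4e (Mincle), Clec4d (MCL) and Clec4n (Dectin-2) signal through the adaptor encoded by Fcer1g and the kinase Syk, and Clec7a (Dectin-1), which binds fungal beta-glucan, carries its own motif for Syk. Clec4a2 (DCIR) and Clec12a (MICL) carry inhibitory motifs that recruit phosphatases such as the one encoded by Ptpn6, and Clec4a1 and Clec4a3 are relatives of Clec4a2. Mrc1 (CD206, the mannose receptor) and Mgl2 (CD301b, which binds galactose-type sugars) are receptors for uptake of glycosylated ligands and are widely used as macrophage markers.

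Of these genes, 8 lie on chromosome 6 of GRCm38, by the GENCODE M21 annotation. Clec4a1 (122921848 to 122934619), Clec4a3 (122952515 to 122969875), Clec4a2 (123106428 to 123143999), Clec4n (123229843 to 123247021) and Clec4d (123262111 to 123275265) run on the plus strand. Clec4e (123281789 to 123289870) follows on the minus strand, 6523 bases beyond the end of Clec4d with no protein-coding gene between them. Clec12a (129342691 to 129365303, plus strand) and Clec7a (129461591 to 129472779, minus strand) form another group, 6052820 bases beyond Clec4e. Mgl2 lies on chromosome 11 (70130329 to 70137550, plus strand) and Mrc1 on chromosome 2 (14229392 to 14332057, plus strand). All are typed as protein-coding except Clec7a, which this annotation types as a polymorphic pseudogene. Mir511, a miRNA gene, lies inside Mrc1, and a processed pseudogene, Gm44132, lies inside Clec4a2, and libraries of this kind do not mark the strand.

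**Figure D1:**
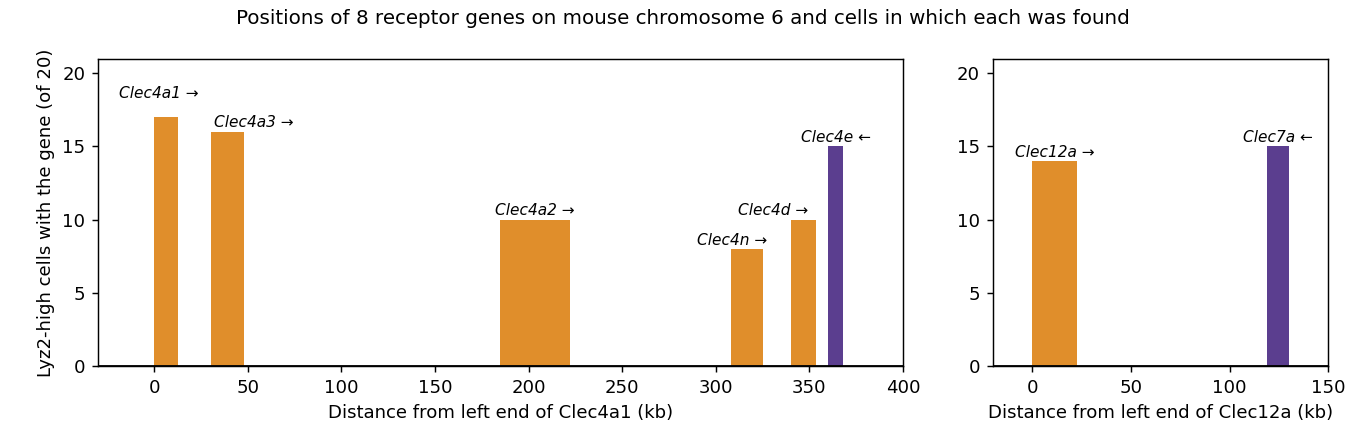
Position of 8 of the receptor genes on mouse chromosome 6, as distance in kilobases from the left end of Clec4a1 (left panel) and of Clec12a (right panel). Bar width is the length of the gene, bar height is the number of the 20 cells with high Lyz2 in which the gene was found, and orange and purple bars run on the plus and minus strands. Clec4d (10 cells) and Clec4e (15 cells) are neighbours transcribed toward each other.

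Promoter windows, 250 bases before to 50 bases after the transcript start, are shown for the 4 genes whose presence divided the cells most clearly. They are RefSeq sequences on GRCm38.p6, written 5′ to 3′ on the strand of the gene. Capitals mark matches on either strand to the core of the PU.1 site (GAGGAA), a C/EBP site (TTGCNNAA), an AP-1 site (TGANTCA) and an IRF site (GAAA, any 2 bases, GAAA).
Clec4e, chr6:123289822-123290121, minus strand: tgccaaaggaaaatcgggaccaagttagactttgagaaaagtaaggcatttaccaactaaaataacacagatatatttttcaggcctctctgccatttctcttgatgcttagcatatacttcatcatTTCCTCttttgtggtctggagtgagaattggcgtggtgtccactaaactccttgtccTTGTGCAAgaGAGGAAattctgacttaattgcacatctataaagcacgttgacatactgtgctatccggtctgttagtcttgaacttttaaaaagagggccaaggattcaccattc
Clec4d, chr6:123261857-123262156, plus strand: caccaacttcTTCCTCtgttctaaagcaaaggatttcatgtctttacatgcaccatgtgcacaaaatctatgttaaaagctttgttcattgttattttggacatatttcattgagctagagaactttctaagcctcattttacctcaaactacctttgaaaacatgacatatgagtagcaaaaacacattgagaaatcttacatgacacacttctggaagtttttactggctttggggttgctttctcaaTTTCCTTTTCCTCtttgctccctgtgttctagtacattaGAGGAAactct
Mgl2, chr11:70130107-70130406, plus strand: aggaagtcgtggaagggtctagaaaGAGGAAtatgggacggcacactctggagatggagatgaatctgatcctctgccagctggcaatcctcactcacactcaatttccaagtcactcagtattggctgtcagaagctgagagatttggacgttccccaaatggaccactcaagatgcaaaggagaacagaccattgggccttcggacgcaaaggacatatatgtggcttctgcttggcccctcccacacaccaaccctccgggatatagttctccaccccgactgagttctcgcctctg
Mrc1, chr2:14229164-14229463, plus strand: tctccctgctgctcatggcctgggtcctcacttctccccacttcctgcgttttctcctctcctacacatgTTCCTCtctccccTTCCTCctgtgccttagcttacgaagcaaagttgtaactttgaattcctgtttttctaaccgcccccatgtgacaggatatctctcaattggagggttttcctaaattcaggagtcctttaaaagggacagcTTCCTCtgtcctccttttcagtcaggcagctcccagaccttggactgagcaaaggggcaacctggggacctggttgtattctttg
In Clec4d the IRF match overlaps the first 3 bases of a PU.1 match. The PU.1 core was found in 9 of the 11 windows listed for the receptor genes (81.8%) and in 28.3% of all 32851 windows of the same length. These 11 windows belong to 9 of the 10 genes, since Clec4n has no entry and Clec4a3 and Clec7a have overlapping pairs of windows. A C/EBP match was in 2 of the 11 (10.8% of all windows), an AP-1 match in 2 (7.81%) and an IRF match in 1 (3.44%). Of the 4 windows printed, Clec4e alone held a C/EBP match and Clec4d alone an IRF match, while the Mgl2 and Mrc1 windows held PU.1 cores only. These are matches of letters and no binding was measured.

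The libraries differed in quality before any receptor gene was considered. In 10 of the 31 libraries less than 80% of expected counts fell on nuclear protein-coding genes (32.8 to 61.6%), against 87.4 to 95.6% in the other 21. Lyz2, the lysozyme gene abundant in monocytes and macrophages, was at 1000 FPKM or more in 20 cells, called Lyz2-high here, which were 20 of these 21. The cells nearest to that line were C7 at 1229 FPKM and D4 at 4075 FPKM inside it, and D10 at 553 FPKM and E5 at 485 FPKM outside it. Of the genes of the sorted antigens, Ptprc (CD45) was found in 19 of the 20 Lyz2-high cells and 5 of the other 11, Csf1r in 20 and 7, Adgre1 (F4/80) in 15 and 1, and Ly6g in 7 (at most 115 FPKM) and 0. Total expected counts per cell were 521492 to 4059833 (median 1591648) in Lyz2-high cells and 120835 to 1592301 (median 413337) in the other 11.

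Receptor genes were concentrated in the Lyz2-high cells. These cells held 4 to 9 of the 10 genes (median 5.5; mean 5.85 ± 1.31, SD over 20 cells), and the other 11 cells held 0 to 5 (median 1). Of the 20, 8 cells held 5 of the genes and 2 cells held 4, while B4 held 9, all but Clec4d. F11, the high-coding cell with 0 FPKM of Lyz2, held 5 (Clec4a2, Clec7a, Clec12a, Mgl2 and Mrc1), and 3 of the 10 low-coding libraries held none. The other 11 were also shallower, and the part of depth and library quality in this difference was not tested. Median numbers of genes of any kind at 1 FPKM or more were 2415 in Lyz2-high cells and 3200 in the other 11. With a gene called found at an expected count of 1 or more, the Lyz2-high cells held a median of 6 receptor genes. By the same rule they held a median of 5 when thinned to 120829 counts each. The number of receptor genes found did not follow depth among the Lyz2-high cells (Pearson r = -0.07 with log10 total counts, and 0.01 with the number of genes found, over 20 cells of 1 sample).

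By how widely they were found in the 20 Lyz2-high cells, the genes ran from Clec4a1 in 17 cells (85.0%, exact Clopper-Pearson 95% interval 62.1 to 96.8%) to Mgl2 and Mrc1 in 6 each (30%, 11.9 to 54.3%). Clec4a3 was found in 16 cells, Clec4e and Clec7a in 15 each, Clec12a in 14, Clec4a2 and Clec4d in 10 each and Clec4n in 8. The intervals of neighbours in this order overlap, and that of Clec4a3 was 56.3 to 94.3%. All genes were counted in the same 20 cells of 1 sample, so the intervals do not compare genes. By median FPKM over the 20 cells Clec7a came first at 383 FPKM, then Clec4e at 296, Clec4a3 at 278, Clec12a at 129 and Clec4a1 at 118 FPKM. Clec4d (0.88), Clec4a2 (0.56), Clec4n, Mgl2 and Mrc1 (0 FPKM each) had medians under 1 FPKM because no more than 10 of the 20 cells held them. Where found, each could be abundant, with highest values of 3736 FPKM for Clec4d, 3238 for Clec4n, 2218 for Clec4a2, 2136 for Mgl2 and 1887 FPKM for Mrc1. No single gene dominated, since the highest of the 10 in a cell was Clec4d in 4 cells, Clec4e in 4, Clec7a in 3, Clec4a2, Clec4a3, Clec4n and Mgl2 in 2 each and Mrc1 in 1. Clec4a1, the most widely found, was highest in none.

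The Lyz2-high cells were next set side by side by C1qb, a complement gene of tissue macrophages that is no member of the family. C1qb was found in 6 of them, B4, C6, C7, F1, H5 and H8, at 3729 to 13306 FPKM, and was at 0 to 0.63 FPKM in the other 14, so no cell lay near the line. Of the 10 receptor genes, 5 had a mean log2(FPKM + 1) higher by 2 or more in the 6 cells with C1qb, where 10.9% of the 5740 genes found in at least 3 Lyz2-high cells did. Another 2 were lower by 2 or more, where 9.7% of all genes were. The median difference was 0.97 over the 10 genes and -0.02 over all genes. These are differences between cells of 1 sample, and where 1 side is at 0 their size depends on the pseudocount of 1. Total counts overlapped, at 767318 to 4059833 (median 2177839) in cells with C1qb and 521492 to 3526674 (median 1433691) in cells without it.

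Markers of cell type moved with C1qb, and their part in the receptor differences was not tested. Of 9 interstitial macrophage markers, cells with C1qb held 4 to 7 (summed level 8642 to 37352 FPKM) and cells without it 0 or 1 (0 to 160 FPKM), with Cd163 and Lyve1 in no Lyz2-high cell. C1qb itself is on that list and is counted in these numbers, with 3729 to 13306 FPKM in the 6 cells. Of 9 classical monocyte markers, cells with C1qb held 1 to 3 (2.02 to 811 FPKM) and cells without it 2 to 9 (1238 to 26705 FPKM). Of 7 nonclassical monocyte markers the numbers were 0 to 3 (0 to 1286 FPKM) with C1qb and 1 to 6 (58.8 to 5354 FPKM) without it. All 8 alveolar macrophage markers and all 4 each for T cells, NK cells, mast cells or basophils and epithelium were found in no Lyz2-high cell. In at least 1 Lyz2-high cell, 4 of 6 markers of type 2 dendritic cells, 2 of 4 of type 1 dendritic cells, 3 of 7 of neutrophils, 2 of 4 of B cells, and 1 of 4 each of endothelium and fibroblasts were found. The dendritic cell markers Cd209a and Clec9a, themselves C-type lectins, were in none. Of the 7 neutrophil markers, S100a9, Retnlg, Lcn2 and Ltf were in no Lyz2-high cell. The other 3 lay mostly on the side of Clec4e and Clec4d: Ly6g was in 0 of 6 cells with C1qb and 7 of 14 without it, S100a8 in 0 of 6 and 3 of 14, and Cxcr2 in 1 of 6 and 9 of 14. Their summed level was 0 to 1.35 FPKM with C1qb and 0 to 1594 FPKM without it, where the 1594 FPKM was S100a8 alone in A10. Cxcr2 was at most 9.74 FPKM in the 20 cells. In each of the 10 low-coding libraries it was the only neutrophil marker found, and the list summed to 12.2 to 91.6 FPKM.

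Clec4e encodes Mincle, the receptor for the mycobacterial cord factor. Of the 10 genes it had the largest difference by C1qb at a pseudocount of 1, close in size to that of Mgl2 (8.77, in the other direction). Clec4e was at 0 FPKM in 5 of the 6 cells with C1qb and at 1.12 FPKM, 2 reads, in the sixth, B4. In the 14 cells without C1qb it ranged from 94.5 to 1872 FPKM (median 635). The sets did not overlap, which held for 0.0697% of all genes in this direction, and mean log2(FPKM + 1) was 0.18 ± 0.44 with C1qb and 9.05 ± 1.32 without it (SD over 6 and 14 cells), a difference of -8.87. In CPM, expected counts scaled to library depth without transcript length, Clec4e was 0 to 2.61 with C1qb and 196 to 4547 (median 979) without it. It was in all 10 Lyz2-high cells with Ly6c2, a marker of classical monocytes, at 176 to 1872 FPKM. It was also in the 4 cells with neither Ly6c2 nor C1qb, at 1025 FPKM in F10, 630 in D4, 356 in C11 and 94.5 in D6.

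Clec4d, whose product MCL pairs with Mincle at the cell surface, was found in 0 of the 6 cells with C1qb and in 10 of the 14 without it. With 0 of 6 cells, a share of up to 50% remains possible by the limit of 3 cells and up to 45.9% by the exact interval. Where found without C1qb, Clec4d ranged from 1.76 FPKM in A10, 3 reads, to 3736 FPKM in G8, and its mean log2(FPKM + 1) was 0 with C1qb and 5.96 ± 4.59 without it. The sets overlapped, since A6, B7, D4 and D6 lack both C1qb and Clec4d. Every one of the 10 cells with Clec4d also held Clec4e, and 10 of the 15 cells with Clec4e (66.7%) held Clec4d. Outside the Lyz2-high cells Clec4d was found in none. Their levels did not rank the cells alike, however: G8 had the highest Clec4d (3736 FPKM) and a low Clec4e (176 FPKM), and A10 had 1475 FPKM of Clec4e and 1.76 of Clec4d.

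**Figure D2:**
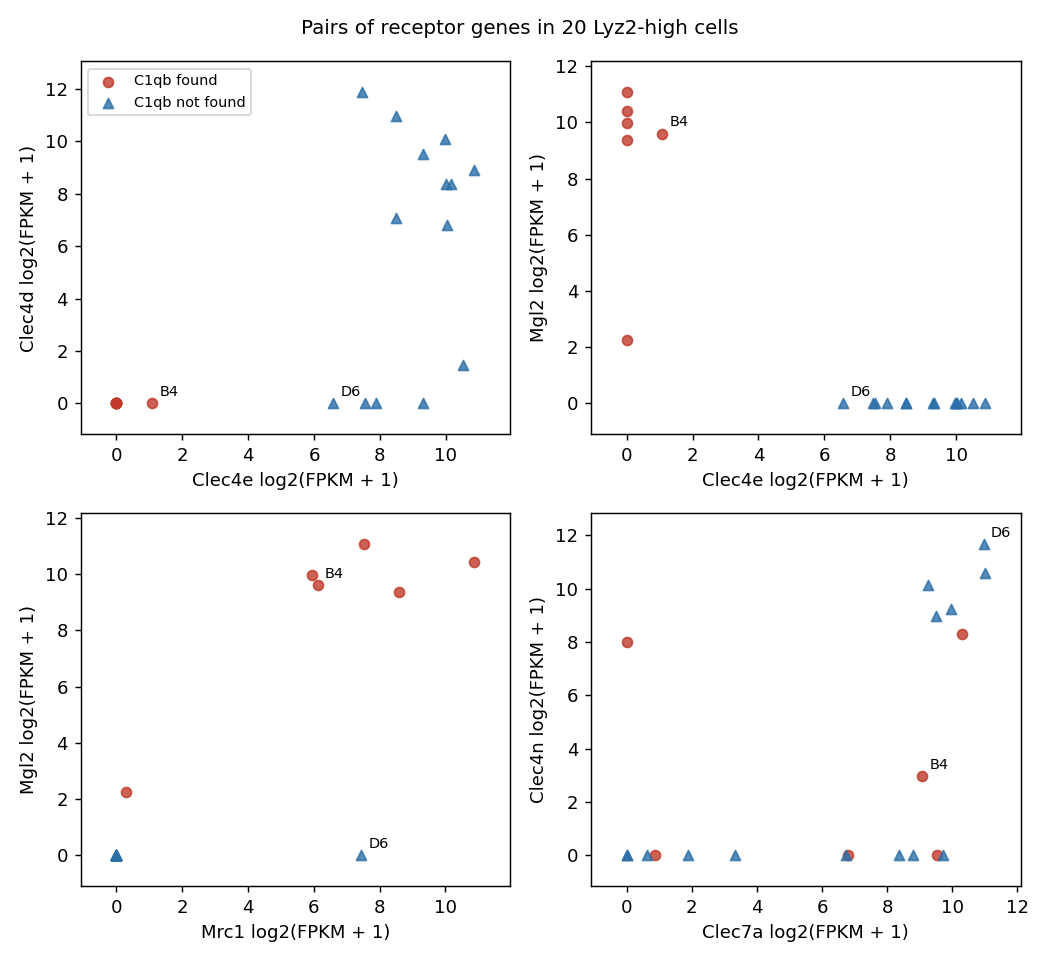
Pairs of receptor genes in the 20 Lyz2-high cells, each point 1 cell, on log2(FPKM + 1) axes. Red circles are the 6 cells with C1qb and blue triangles the 14 without it, and B4 and D6 are labelled. Clec4d is found only beside Clec4e in these cells, and Clec4e and Mgl2 lie on separate axes except in B4. Mgl2 and Mrc1 are found together in 5 cells and apart in C7 and D6. Clec7a is in 7 of the 8 cells with Clec4n and in 15 of all 20 cells.

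Mgl2 and Mrc1 showed the opposite pattern. Mgl2 was found in all 6 cells with C1qb, at 3.73 FPKM in C7 (7 reads) and 655 to 2136 FPKM in the other 5, and in 0 of the 14 cells without it, all at 0 FPKM. With 0 of 14 cells, a share of up to 21.4% remains possible by the limit of 3 cells and up to 23.2% by the exact interval. The sets did not overlap, which held for 0.139% of all genes in this direction, and mean log2(FPKM + 1) was 8.77 ± 3.26 with C1qb and 0 without it. Mgl2 shares 19.3% of its 31-base stretches with Clec10a, which encodes its closest relative, so reads could be split between them. Clec10a itself was found in 2 of the 20 cells, at most 100 FPKM, and in 1 of the 6 with C1qb.

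Mrc1 was found in 5 of the 6 cells with C1qb, at 60.3 FPKM in H8, 68.4 in B4, 184 in H5, 386 in C6 and 1887 FPKM in F1, and was at 0.22 FPKM in C7. Among the 14 cells without C1qb, D6 had 174 FPKM and the other 13 had 0. One cell on each side thus broke the division, and mean log2(FPKM + 1) was 6.56 ± 3.57 with C1qb and 0.53 ± 1.99 without it. Mgl2 and Mrc1 were found together in 5 cells, which were 5 of the 6 with Mgl2 (83.3%) and 5 of the 6 with Mrc1. Outside the Lyz2-high cells F11, with 258 FPKM of C1qb, also held both, at 357 FPKM of Mgl2 and 50.3 of Mrc1.

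Each of the 20 Lyz2-high cells held Clec4e, Mgl2 or Mrc1. Clec4e without Mgl2 and Mrc1 was found in 13 cells, Mgl2 or Mrc1 without Clec4e in 5, and a mixture in 2, B4 and D6. In B4 the mixture rested on the 2 reads of Clec4e. D6 held 385 reads of Clec4e and 952 of Mrc1, with no Mgl2 and no C1qb. D6 also had the highest Clec4n of all cells (3238 FPKM) and one of the highest Clec7a (1995 FPKM). Of the 9 interstitial macrophage markers it held Stab1 alone, and of the 9 classical monocyte markers Ccr2, S100a4 and Fn1. Its total of 1959746 counts lay within the range of the other Lyz2-high cells.

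Genes of the inhibitory receptors leaned toward the cells with C1qb, with overlap. Clec4a2 was found in 5 of the 6 cells with C1qb (0, median 511, highest 2218 FPKM) and in 5 of the 14 without it (0, median 0, highest 1008 FPKM), and the difference in mean log2(FPKM + 1) was 5.0. H5 had none among cells with C1qb, and B7 had the most among cells without it. Some 10.9% of 31-base stretches of Clec4a2 occur in other genes, first among them its neighbour Clec4a4, which no Lyz2-high cell held. Clec12a was in 5 of 6 cells with C1qb (0, median 208, highest 1412 FPKM) and 9 of 14 without it (0, median 45.5, highest 528 FPKM), a difference of 2.53. The SD over cells with and without C1qb was 4.07 and 3.72 for Clec4a2. For Clec12a it was 3.70 and 3.78, larger than the difference. At least 1 of these 2 genes was in 18 of the 20 cells, and both were in 6.

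The relatives of Clec4a2 were found on both sides. Clec4a3 was in 6 of 6 cells with C1qb (lowest 6.77, median 642, highest 1624 FPKM) and in 10 of 14 without it (0, median 103, highest 1594 FPKM), a difference of 2.29. Clec4a1 was in 4 of 6 with C1qb (0, median 140, highest 437 FPKM) and in 13 of 14 without it (0, median 118, highest 590 FPKM), a difference of -1.34. The SD over cells with and without C1qb was 2.81 and 4.21 for Clec4a3 and 4.06 and 2.59 for Clec4a1. Both differences were smaller in size than these. The 2 genes are neighbours, 17895 bases apart, and were found together in 14 cells. Clec4a3 was in 82.4% of cells with Clec4a1 and in 80.0% of all 20 Lyz2-high cells. Clec4a1 was in 87.5% of cells with Clec4a3 and in 85.0% of all 20. All of Clec4a1, Clec4a2 and Clec4a3 were in 6 cells, 3 with C1qb and 3 without it, and C8 held none of them.

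Clec7a and Clec4n, the receptors for fungal beta-glucan and mannan, did not divide by C1qb. Clec7a was in 4 of 6 cells with C1qb (0, median 325, highest 1253 FPKM) and in 11 of 14 without it (0, median 383, highest 2039 FPKM), a difference of -0.34. Clec4n was in 3 of 6 with C1qb (0, median 3.42, highest 311 FPKM) and in 5 of 14 without it (0, median 0, highest 3238 FPKM), a difference of -0.41. Both differences are far under the SD over cells, which was 3.99 to 5.07. The 5 cells without C1qb that held Clec4n all had at least 503 FPKM of it, whereas F1 (252 FPKM), C6 (311) and B4 (6.83, 5 reads) made up those with C1qb. Of the 8 cells with Clec4n, 7 held Clec7a (87.5%), and of the 15 with Clec7a, 7 held Clec4n (46.7%). F1 held Clec4n with no Clec7a.

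**Figure D3:**
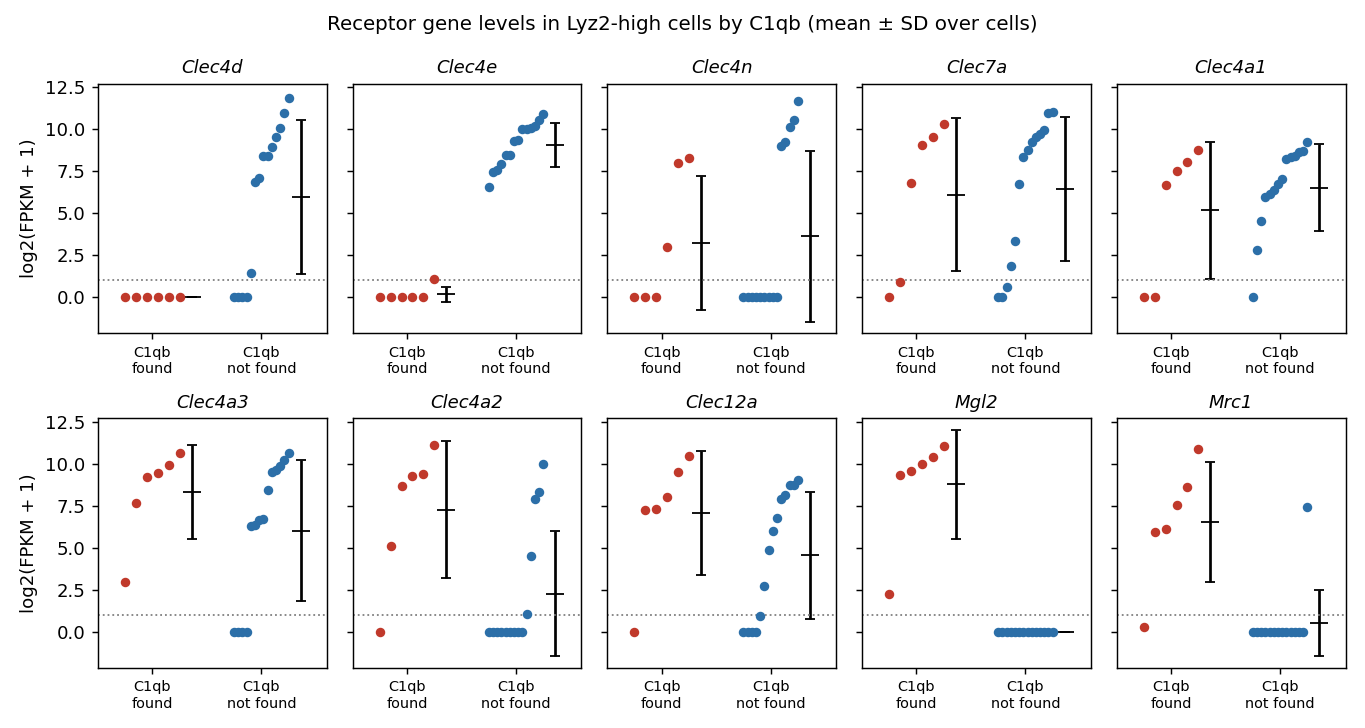
Level of each receptor gene as log2(FPKM + 1) in Lyz2-high cells, 6 with C1qb (red) and 14 without it (blue), 1 point per cell, sorted by level. Black marks show the mean ± SD over cells and the dotted line is 1 FPKM. Clec4e and Mgl2 separate the sets without overlap. The other 8 genes overlap: Mrc1 through C7 and D6, and Clec4d through the 4 cells without C1qb that are at 0 like all 6 cells with it.

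Across all 45 pairs, the cells holding both genes ranged from 0 for Clec4d with Mgl2 and for Clec4d with Mrc1 to 14 for Clec4a1 with Clec4a3 and for Clec4a1 with Clec4e. Clec4e was found with Mgl2 in 1 cell and with Mrc1 in 2. Pearson r of levels lay furthest from 0 for Clec4e with Mgl2 (-0.89), Mgl2 with Mrc1 (0.86) and Clec4e with Mrc1 (-0.79). Next were Clec4d with Clec4e (0.64), Clec4a2 with Mrc1 (0.59) and with Clec4e (-0.58), and Clec4d with Mrc1 (-0.58). Clec4d with Mgl2 (-0.55), Clec4a2 with Mgl2 (0.51) and Clec7a with Clec4n (0.49) followed. These values are on log2(FPKM + 1) over 20 cells of 1 sample that differ in depth. Clec4e and Clec7a, both activating, were each found in 15 of the 20 cells and together in 12. Their levels did not run together, with a Pearson r of -0.0006 on the same scale. Of the 20 cells, 19 held at least 1 of Clec4e, Clec4n and Clec7a, H5 being the exception.

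**Figure D4:**
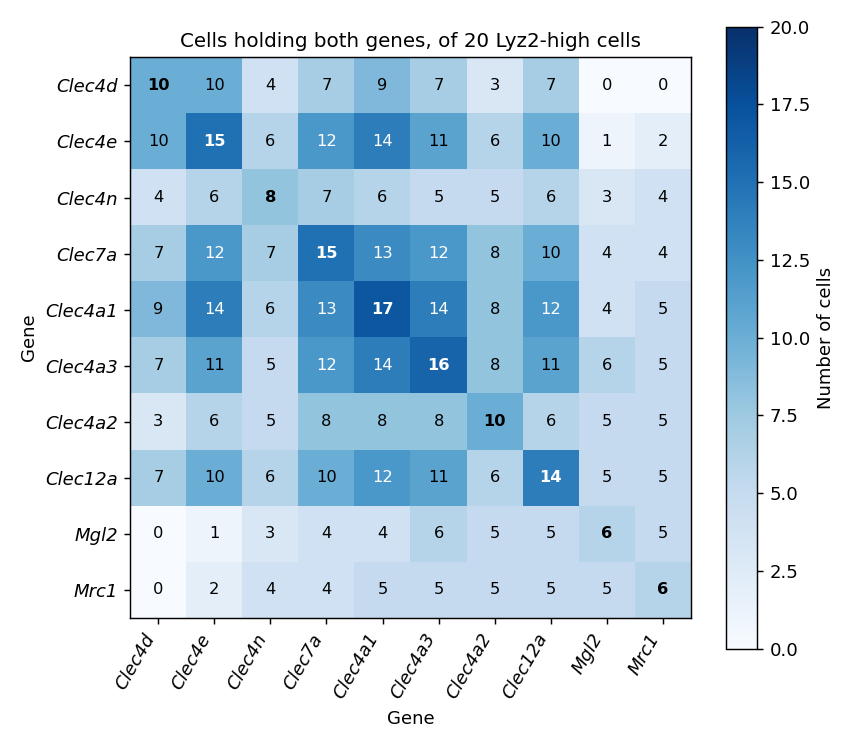
Number of the 20 Lyz2-high cells in which both genes of a pair were found, with each gene's own number of cells on the diagonal in bold. Clec4d shares 10 cells with Clec4e and 0 with Mgl2 or Mrc1, while Mgl2 and Mrc1 share 5 cells with each other.

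Outside the members, the genes whose levels ran most like theirs were named from the 3536 candidates found in at least 5 but not all of the 20 cells, by Pearson r of log2(FPKM + 1). For Clec4e these were S100a4 (0.93), Plac8 (0.90) and Cytip (0.89), of which S100a4 and Plac8 are on the classical monocyte list. For Mgl2 they were the chemokine gene Pf4 (0.98), Cd81 (0.95) and the complement gene C1qa (0.94), and for Mrc1 Gm43778 (0.94), Tmem176a (0.91) and Ighm (0.91). Pf4 and C1qa are on the interstitial macrophage list. Clec4d ran most like Mefv (0.78), which encodes pyrin, Hopx (0.77) and Mcemp1 (0.77). Clec12a ran most like Skil (0.84), H2-DMb1 (0.78) and Btg2 (0.73), and Clec4a2 most like S100a13 (0.82), Abhd17a (0.75) and the transferrin gene Trf (0.74). Clec4n ran most like Npc1 (0.81), U2af1 (0.79) and Dyrk1a (0.78). The remaining genes had looser partners: Gnas (0.67), Pde4b (0.65) and Rps13-ps2 (0.61) for Clec4a1, Rasa4 (0.66), Adipor1 (0.64) and Casp1 (0.63) for Clec4a3, and Gabarap (0.69), Sgip1 (0.66) and Gm29562 (0.61) for Clec7a. With 3536 candidates over 20 cells of 1 sample that differ in depth, these are descriptions.

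Of 22 genes that carry signals from these receptors, 11 were found in at least 10 of the 20 Lyz2-high cells. Fcer1g, the adaptor of Mincle and Dectin-2, and the related adaptor gene Tyrobp were in all 20, with median Fcer1g of 3675 FPKM in cells with C1qb and 3991 FPKM in cells without it. The kinase genes Prkcd and Lyn were in 18 and 16 cells, the NF-kappa B genes Rel and Nfkb1 in 18 and 12, and Syk and the phosphatase gene Ptpn6 in 12 each. Syk was in 9 of the 15 cells with Clec4e. Card9, which links Syk to NF-kappa B, was in 1 cell, F1, which had no Clec4e. Malt1, Lyn, Nfkb1 and Rel were among those lower by 2 or more in mean log2(FPKM + 1) in cells with C1qb, and none of the 22 was higher by that much, where 9.7% of the 5740 genes were lower and 10.9% higher. Btk was in none of the 20.

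Of 12 cytokine, chemokine and enzyme genes known to be induced through these receptors, 6 were found in at least 10 of the 20 cells. Cxcl2 was in 17, the interleukin gene Il1b in 16, Tnf in 15, Ccl4 in 14, Ccl3 in 13 and Ptgs2 in 10, and Csf2, Csf3 and Il23a were in none. Il1b was in 13 of the 15 cells with Clec4e and in 3 of the 5 without it, and Tnf in 12 of 15 and 3 of 5. Median Il1b was 123 FPKM in cells with C1qb and 5488 FPKM in cells without it. Of the 12, Il1b, Il6, Cxcl2, Ccl3 and Ptgs2 were lower by 2 or more in mean log2(FPKM + 1) with C1qb, as were 9.7% of the 5740 genes, and none was higher by that much, as were 10.9%. These genes respond to many signals, and the labels name no ligand given to the mice.

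Other C-type lectin genes were found far less often than the 10 described. Of 54 such genes 34 were in no Lyz2-high cell, and Klra2 alone was in at least 10 (11 of 20). Others were Vcan in 8, Cd302 in 7 and Cd93 and Clec2i in 6 each. Vcan and Cd93 were found in 0 of 6 cells with C1qb and in 8 and 6 of the 14 without it, and Klra2 in 1 of 6 and 10 of 14. Vcan is also on the classical monocyte list. A cell held 1 to 6 of these 54 genes (median 4) and 4 to 9 of the 10. The 10 were put forward with earlier results of these cells known, so this contrast is a description.

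In the 10 low-coding libraries Clec4a3, Clec4d, Clec4n and Mrc1 were found in none, so a share of up to 30% remains possible by the limit of 3 cells and up to 30.8% by the exact interval. Clec4e was found in 4, at 931 FPKM in E5, 499 in F2, 9.20 in C4 and 7.75 FPKM in G3, where C4 and G3 had 2 reads and 1 read. E5 and F2 had 485 and 0.59 FPKM of Lyz2. The 931 FPKM of E5 came from 63 reads, or 194 CPM, which is close to the 196 CPM of D6, where FPKM was 94.5. The ratio of CPM to FPKM, which is the transcript length in kilobases that FPKM implies, ran for Clec4e from 0.95 to 3.06 among Lyz2-high cells with at least 10 reads. The same ratio ran from 0.33 to 2.33 for Clec12a, 0.36 to 2.30 for Clec4a2, 0.71 to 2.10 for Clec7a and 1.89 to 5.19 for Mrc1, but was nearly constant, 1.35 to 1.39, for Clec4a1. For the genes with a wide range, the order of cells by FPKM thus differs in part from that by counts. By an expected count of 1 or more in place of 1 FPKM, Clec7a was found in 17 Lyz2-high cells, Clec12a in 15 and Mrc1 in 7, and each of the other 7 genes in the same number as before.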

How the data were processed

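Per the labels' protocols, sorted cells were caught on a Fluidigm C1 chip, their polyadenylated RNA was copied to cDNA with SMARTer chemistry, and libraries were made with Nextera XT. GRCm38, RSEM, Trimmomatic and CASAVA 1.8 are named in the submitters' processing notes. Settings, annotation release and cell filters were not given in the sources used here. Expected counts from RSEM, which are estimated and need not be whole, were deposited by the authors. The authors also deposited FPKM, already scaled to depth and transcript length. Without molecular identifiers, amplified copies count as reads. Of the count table, 44 columns matched no sample and were not used. Of 47069 identifiers, 46488 matched a symbol, and no libraries were identical.

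The receptor genes, lists, splits and promoter motifs were chosen with earlier results of these data known. A gene was found at 1 FPKM or more, and Lyz2-high meant 1000 FPKM or more. Shares carry exact Clopper-Pearson 95% intervals, and a count of 0 allows 3 cells. With 1 sample there was no test, and differences are of mean log2(FPKM + 1) over cells. Genes most like a receptor gene were the first 3 by Pearson r. Of each list, up to 6 or those crossing a difference of 2 are named, and Cd72, Clec4b1, Card9, Clec4a4, Clec10a and the genes of the sorted antigens were picked with their values in view. A few genes of the lists are not reported here by name. No doublet caller was run. Shared stretches of 31 bases were counted in GENCODE M21 transcripts. Alternatives were other minimums of FPKM, counts and Lyz2, thinning to 120829 counts, and pseudocounts of 0.1 and 10. After thinning, a gene was called found at a count of 1 or more. The steps across genes were tested on simulated data. Python 3.11.15, pandas 2.3.3, NumPy 2.4.6, SciPy 1.17.1 and matplotlib 3.10.9 were used.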

Additional observations from a re-analysis of the deposited data

How the results depend on the processing

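The median of 5.5 receptor genes per Lyz2-high cell was 5 to 6 under every alternative run, among them 5 or 50 FPKM as the minimum, counts of 1 or 10 or more, thinning to 120829 counts and other Lyz2 minimums. Cells holding both Clec4d and Clec4e numbered 9 or 10 throughout, and in each of these 8 settings the number of cells with each receptor gene stayed within its interval. The Clec4e difference by C1qb of -8.87 became -11.76 with a pseudocount of 0.1, -5.73 with a pseudocount of 10 and -7.17 with Lyz2 at 100 FPKM or more, and the Mrc1 difference of 6.03 became 8.78 with a pseudocount of 0.1 and 3.53 with a pseudocount of 10. With 1 side at or near 0 the size depends on the pseudocount, and the lower Lyz2 minimum adds 5 low-coding libraries, 3 of them with no Clec4e. None of these values changed direction. Of the 30 partner genes named, 21 were named again with a pseudocount of 10 and 30 with a filter of 3 cells. No paired analysis was possible because all cells belong to 1 group. With 6 cells holding C1qb, a gene found in none of them could still be in up to 50% of such cells by the limit of 3 cells.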

Other observations

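Cd72, a C-type lectin gene best known from B cells, was found in 5 of the 6 Lyz2-high cells with C1qb (median 366 FPKM, highest 1468) and in 0 of the 14 without it, so its mean log2(FPKM + 1) was 7.35 ± 3.48 with C1qb and 0 without it. Of 4 B cell markers, C7 held Cd79b and Ms4a1 (summed level 152 FPKM), and no other cell with C1qb held any. Cells without C1qb held 0 of these 4 (0 to 0.53 FPKM), and Cd79a was in no Lyz2-high cell. The immunoglobulin gene Ighm, which is not among these 4, was found in 7 Lyz2-high cells, among them all 6 with Mrc1. The part of these markers and of Ighm in the Cd72 difference was not tested. Clec4b1, another gene of the Clec4 family, was in 3 of 6 cells with C1qb (median 603 FPKM) and 2 of 14 without it (median 0 FPKM). Klra2, a gene of the Ly49 family, leaned the other way, with medians of 0 FPKM with C1qb and 159 FPKM without it. D4 and G8 each held 6 of the 7 nonclassical monocyte markers and differed in classical monocyte markers and in the receptor genes. Of the 9 classical monocyte markers D4 held 2 (summed level 1238 FPKM) and G8 held 6 (13888 FPKM). D4, with no Ly6c2, had 630 FPKM of Clec4e and no Clec4d, while G8, with 650 FPKM of Ly6c2, had 176 FPKM of Clec4e and 3736 FPKM of Clec4d.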
